A study of Mus musculus with 6 samples.

Results

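Amino acids enter a cell through carrier proteins of the plasma membrane, each with its own substrates and driving force. The mRNAs of 10 genes were followed in B16F10 mouse melanoma cells depleted of OSGEP. They encode such carriers and Slc3a2, the heavy chain that brings Slc7a5 and related light chains to the membrane. All 10 are called carriers below. They were picked out by gene symbol: Slc7a5, Slc3a2, Slc43a1, Slc7a1, Slc7a3, Slc1a4, Slc1a5, Slc6a9, Slc38a1 and Slc38a2, out of 55487 genes listed. OSGEP is the enzyme of the KEOPS complex, which builds the t6A modification of tRNAs from threonine. The shCtr group (n = 3) was B16F10 cells, labelled wild type, infected with a control shRNA, and the shOSGEP group (n = 3) was B16F10 cells infected with OSGEP hairpin number 2. The labels give 3 separate infections. A single hairpin was sequenced, so effects of the hairpin and of OSGEP loss cannot be told apart here, and the knockdown left some Osgep mRNA. No collection time after infection is given in the labels.

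Transporters with overlapping substrates act together. Exchangers such as Slc7a5 trade an inner amino acid for an outer one, sodium-coupled carriers such as Slc38a1, Slc38a2 and Slc6a9 load the cell against a gradient, and cationic carriers such as Slc7a1 bring in arginine and lysine. Many of these genes are known targets of ATF4, the transcription factor made when the translation factor eIF2 is phosphorylated, which binds a composite element called CARE (a C/EBP site joined to an ATF site). Tumour cells, melanoma included, are known for strong expression of Slc7a5 with its partner Slc3a2.

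The libraries held between 18915587 and 29487384 counts. Osgep was counted 485, 1193 and 473 times in shCtr replicates 1, 2 and 3 and 92, 14 and 130 times in the same-numbered shOSGEP libraries, lower in shOSGEP without overlap between groups. Of the melanocytic markers, 7 of 7 were above a mean of 1 CPM (TMM-scaled, a count relative to the size of its library), with summed levels of 17038 to 29599 CPM in shCtr and 3551 to 18083 CPM in shOSGEP, lowest in shOSGEP replicate 2. Summed immune, fibroblast, endothelial and epithelial markers did not exceed 10.2, 4.11, 0.310 and 0.0492 CPM in any library, and Ptprc, Cd3e, Itgam, Dcn, Cdh5 and Epcam were at 0 in every library. TMM scaling gave shCtr replicate 2 a factor of 0.690 and the other libraries factors of 1.04 to 1.14. The shOSGEP replicate 2 library, at 1.07, stood apart in its melanocytic sum and not in its factor. Log2FC without replicate 2 are therefore given for the genes and lists that moved most without it.

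Of the carriers with a RefSeq promoter, Slc1a4 alone held a CARE match near its start site. Whether the match bears on its mRNA level was not tested. RefSeq promoter windows (build GRCm38.p6, each of 300 bases around a start) were found for 6 of the 10 genes, as 9 windows. They covered Slc1a4, Slc38a2, Slc3a2, Slc43a1, Slc6a9 and Slc7a1, with none for Slc7a5, Slc7a3, Slc1a5 and Slc38a1. CARE was searched on both strands as TGATGNAA, and it occurred in 1 of the 9 windows, against 3.97% of all 32851 windows. The stretch of the Slc1a4 promoter from 150 bases before to 20 bases after the start, chr11:20332694-20332863 on the minus strand, is shown because it holds that match, which is in capitals and reads as the reverse complement of the motif.
Slc1a4: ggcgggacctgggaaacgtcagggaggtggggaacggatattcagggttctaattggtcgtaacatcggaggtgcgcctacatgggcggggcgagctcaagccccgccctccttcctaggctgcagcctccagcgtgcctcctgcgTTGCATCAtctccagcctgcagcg

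The Slc1a4 match began 4 bases before the start site and ran across it. For comparison, 30 bases around it are set beside 30 bases around matches of Slc7a11 and Slc7a7. Of 30 other plasma membrane carriers 22 had a window, and of those Slc7a11 and Slc7a7 had a match (3 of 32 windows). The carriers without a window, among them Slc6a6, Slc6a15 and Slc38a3, were not searched. Slc7a11 and Slc7a7 both encode light chains that share the heavy chain Slc3a2. The capitals mark the motif in either orientation.
Slc1a4 (chr11:20332699-20332728, minus strand): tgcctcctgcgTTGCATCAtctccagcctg
Slc7a11 (chr3:50443642-50443671, minus strand): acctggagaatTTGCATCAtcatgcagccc
Slc7a11 (chr3:50443661-50443690, minus strand): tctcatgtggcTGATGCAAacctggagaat
Slc7a7 (chr14:54417927-54417956, minus strand): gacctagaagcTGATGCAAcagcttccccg
The same 8 letters, TTGCATCA, stood in Slc1a4 and Slc7a11, and Slc7a7 had them as their reverse complement. The second Slc7a11 match was 66 bases and the first 47 bases before its start. The Slc7a7 match shown began 1 base before one of its starts, and a further match, TGATGAAA, lay 141 bases before a start. The CRE letters TGACGTCA were in 0 of the 9 windows and in 1.79% of all windows. The E-box CACGTG was in 1 of the 9, that of Slc43a1, and in 7.15% of all. A match is a description of letters and was not measured as a bound site.

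The levels of the 10 mRNAs covered a wide range. Per length of the longest transcript, shCtr levels were 115 ± 72.9 RPKM (SD, n = 3) for Slc3a2, 84.9 ± 30.1 for Slc7a5, 66.8 ± 25.2 for Slc38a1, 48.7 ± 32.9 for Slc38a2, 40.8 ± 13.4 for Slc7a1 and 28.4 ± 4.07 for Slc1a5. Lower in the order were Slc1a4 at 7.62 ± 1.82 RPKM, Slc6a9 at 7.54 ± 1.53, Slc43a1 at 0.457 ± 0.0975 and Slc7a3 at 0.104 ± 0.152. The ranges of neighbours in this order overlapped down to Slc7a1 and Slc1a5, and again between Slc1a4 and Slc6a9. The steps from Slc1a5 to Slc1a4, from Slc6a9 to Slc43a1 and from Slc43a1 to Slc7a3 were free of overlap. In shOSGEP the order differed only in that Slc1a5, at 44.6 RPKM, stood before Slc7a1, at 41.8 RPKM, and these ranges overlapped. There the Slc3a2 and Slc7a5 ranges no longer overlapped, whereas those of Slc7a1 and Slc1a4 and of Slc43a1 and Slc7a3 did. The cells held much mRNA of the heavy chain and of the large neutral amino acid exchanger, and little of the second large neutral carrier Slc43a1 and the second cationic carrier Slc7a3.

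**Figure D1:**
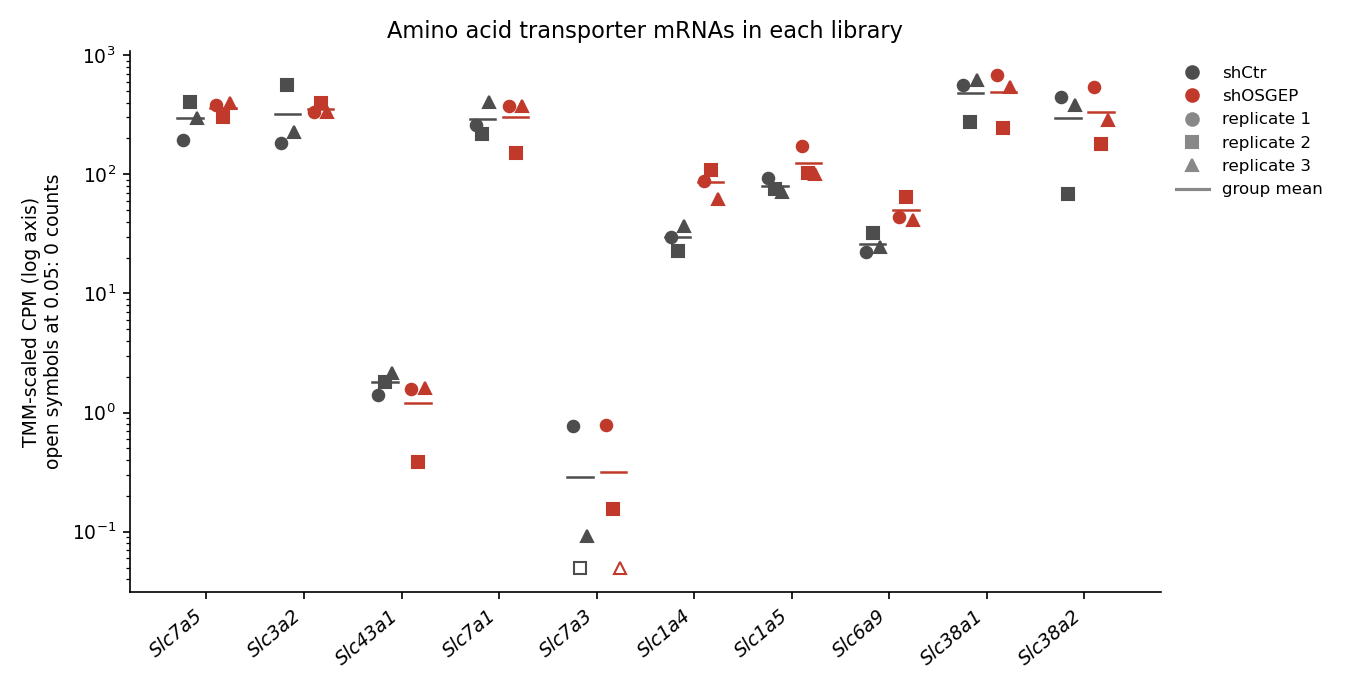
Level of each carrier mRNA in each library, as TMM-scaled CPM on a log axis, with shCtr in grey and shOSGEP in red, one symbol per replicate number and a line at each group mean. Open symbols at 0.05 are libraries with 0 counts. Slc1a4, Slc1a5 and Slc6a9 are the genes whose 3 shOSGEP points all lie above their 3 shCtr points.

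Of the 10 genes, 9 had enough counts to be tested, all but Slc7a3. In shOSGEP 8 of the 9 had a Log2FC above 0 and 1 below, with a median Log2FC of 0.17, whereas the 12669 genes tested had a median of -0.03, with 5998 above 0. The tally of directions depended on the fit, with 6 above 0 and 3 below under the replicate block and 5 above and 4 below in limma-voom with sample quality weights. The quasi-likelihood test of edgeR, with p adjusted by Benjamini-Hochberg over all genes tested, called 0 of the 9 under 0.05, as it did 0% of all genes. Osgep, with a Log2FC of -3.29 and an unadjusted p of 0.00524 in this test, was not called either. The 0 of 9 thus does not show that the carriers were unchanged. At an unadjusted p under 0.05 edgeR called 1 of the 9, against 256 of the 12669 genes. DESeq2 and limma-voom with sample quality weights called 0 of the 9 at an adjusted p under 0.05. Of the 12669 genes they called 14 and 3, with Osgep among those of DESeq2. The threshold of the study, a Log2FC beyond 0.5 with an unadjusted p under 0.05, was passed by 1 of the 9, Slc1a4, which was higher in shOSGEP, against 1.59% of all genes passing it as higher. The groups did not overlap, with shOSGEP higher, for 3 of the 9, against 3.49% of all genes. Those 3 were Slc1a4, Slc1a5 and Slc6a9. Groups that do not overlap must also differ in all 3 same-numbered comparisons, so that count was no separate evidence. It held the same 3 of the 9, against 17.6% of all genes. The fit was repeated with the replicate number as a block. With the block 2 of the 9 passed the study threshold as higher, Slc1a4 and Slc6a9, against 2.32% of all genes.

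The small neutral amino acid exchangers Slc1a4 and Slc1a5 are described first. Slc1a4 (ASCT1, ENSMUSG00000020142, chromosome 11, 20302180 to 20332713, minus strand, GRCm38) carries alanine, serine, cysteine and threonine. Its shCtr level was 30.0, 22.8 and 37.0 CPM in replicates 1, 2 and 3, and its shOSGEP level 87.4, 109 and 62.3 CPM. The lowest shOSGEP library lay above the highest shCtr library, and shOSGEP replicate 2 was the highest of all. The means were 29.9 ± 7.13 and 86.3 ± 23.4 CPM (SD, n = 3), a Log2FC of 1.53 (SE 0.427, 95% interval 0.55 to 2.51). In edgeR's quasi-likelihood test its unadjusted p was 0.00682 and its adjusted p was 1.00, and the exact permutation test gave p = 0.1, the smallest that 3 libraries against 3 allow. The log2 ratios of same-numbered libraries were 1.54, 2.26 and 0.75. Over the alternatives run the Log2FC stayed between 1.07 and 1.89, and without replicate 2 it was 1.16. The only one to end its passing of the study threshold was leaving out both libraries of replicate 1, with a Log2FC of 1.52.

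Slc1a5 (ASCT2, ENSMUSG00000001918, chromosome 7, 16781340 to 16798274, plus strand) carries glutamine and other neutral amino acids. Its shCtr level was 92.7, 75.3 and 71.1 CPM, and its shOSGEP level 174, 102 and 100.2 CPM. The groups did not overlap, though shOSGEP replicates 2 and 3 lay close above shCtr replicate 1. The Log2FC was 0.65 (SE 0.405, 95% interval -0.28 to 1.58) with an unadjusted p of 0.144 in edgeR, past neither threshold. Without shOSGEP replicate 1, its highest library, the Log2FC was 0.34. Same-numbered log2 ratios were 0.91, 0.44 and 0.49. Within a library the Slc1a5 counts were 3.09, 3.31 and 1.92 times those of Slc1a4 in shCtr and 1.99, 0.933 and 1.61 times in shOSGEP. The ratio was below 1 in shOSGEP replicate 2 alone, and the groups overlapped. The mean log2 ratio was 1.43 ± 0.427 in shCtr and 0.53 ± 0.563 in shOSGEP (SD, n = 3), a difference of -0.91 with p = 0.2 in the exact permutation test (two-sided, not paired). Between same-numbered libraries the log2 ratio was lower in shOSGEP in 3 of 3, by -0.63, -1.83 and -0.26.

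Slc6a9 (GlyT1, ENSMUSG00000028542, chromosome 4, 117834506 to 117875198, plus strand) takes up glycine with sodium and chloride. Its shCtr level was 22.1, 32.2 and 24.4 CPM, and its shOSGEP level 43.8, 64.3 and 41.4 CPM. Replicate 2 was the highest library of both groups, and the groups did not overlap. The Log2FC was 0.93 (SE 0.410, 95% interval -0.01 to 1.87) with an unadjusted p of 0.0526 in edgeR. Its same-numbered ratios were the most even of the 9 tested carriers, at 0.99, 1.00 and 0.76. With the replicate block its Log2FC was 0.92 and its unadjusted p 0.0167, with an adjusted p of 0.741. Its exons overlap those of Gm17114, Ccdc24 and B4galt2 on the opposite strand, and the counting was not stated to use strand. Those genes had at most 0, 3 and 11 counts in any library, against 519 or more for Slc6a9.

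**Figure D2:**
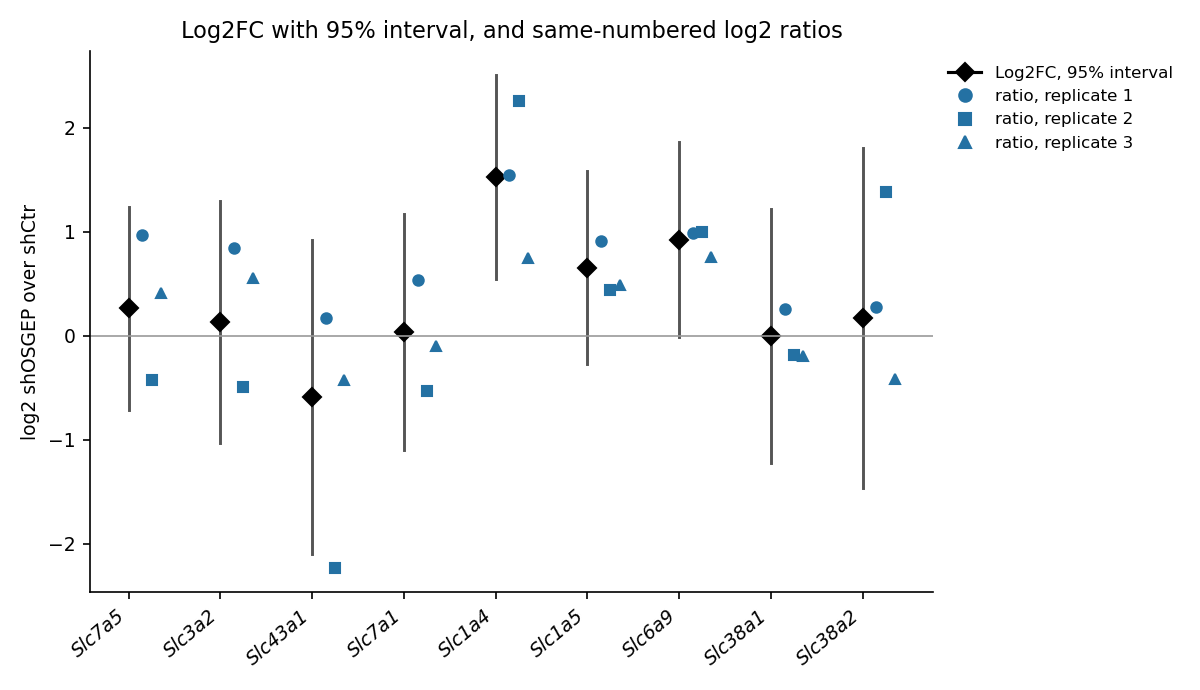
Log2FC of the 9 tested genes, shOSGEP over shCtr, as black diamonds with 95% intervals from edgeR's quasi-likelihood test, and log2 ratios of same-numbered libraries as blue symbols (circle, replicate 1, square, replicate 2, triangle, replicate 3). The interval of Slc1a4, 0.55 to 2.51, is the only one that does not reach 0.

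The large neutral amino acid carriers passed no threshold in the edgeR fit without a block. Slc7a5 (LAT1, ENSMUSG00000040010, chromosome 8, 121881150 to 121907694, minus strand) exchanges leucine and other large neutral amino acids. Its shCtr level was 194, 406 and 296 CPM, and its shOSGEP level 379, 303 and 394 CPM. The groups overlapped: shCtr replicate 2 was above every shOSGEP library and shCtr replicate 1 below every one. The Log2FC was 0.26 (SE 0.426, 95% interval -0.71 to 1.24) with an unadjusted p of 0.551 in edgeR. Same-numbered ratios were 0.97, -0.42 and 0.41, and the Log2FC was 0.66 without replicate 2 and 0.00 without replicate 1.

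Slc3a2 (CD98 heavy chain, ENSMUSG00000010095, chromosome 19, 8706882 to 8723369, minus strand) brings Slc7a5 and related light chains to the membrane. Its shCtr level was 184, 558 and 225 CPM, and its shOSGEP level 330.3, 397 and 330.6 CPM. The shCtr libraries spread on both sides of the shOSGEP libraries, which lay close together. The Log2FC was 0.13 (SE 0.509, 95% interval -1.04 to 1.29) with an unadjusted p of 0.806 in edgeR. Same-numbered ratios were 0.84, -0.49 and 0.55, and without replicate 2 the Log2FC was 0.69. Of the 31-base words of its transcripts, 4.15% occur in another gene, so part of its reads is uncertain. In shCtr, Slc7a5 and Slc3a2 were both lowest in replicate 1 and highest in replicate 2. In shOSGEP, replicate 2 was the lowest library of Slc7a5 and the highest of Slc3a2. Their mean log2 count ratio was 0.00 ± 0.431 in shCtr and 0.02 ± 0.357 in shOSGEP (SD, n = 3), p = 1 in the exact permutation test, and by distance between centred profiles each was the other's nearest among the 9 tested genes (0.792).

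Slc43a1 (LAT3, ENSMUSG00000027075, chromosome 2, 84838850 to 84863594, plus strand) lets large neutral amino acids pass without a heavy chain. It had 33, 37 and 47 counts in shCtr and 34, 10 and 38 counts in shOSGEP. The shOSGEP replicate 2 library was low, and the other shOSGEP libraries lay within the shCtr range. Its Log2FC was -0.59 (SE 0.660, 95% interval -2.10 to 0.92) with an unadjusted p of 0.397 in edgeR, and -0.16 without replicate 2. The log2 ratio of Slc7a5 to Slc43a1 counts averaged 7.34 ± 0.403 in shCtr and 8.48 ± 0.976 in shOSGEP (SD, n = 3). The groups of ratios did not overlap, with p = 0.1 in the exact permutation test, the smallest possible. The highest ratio rested on the 10 counts of shOSGEP replicate 2, and without that library the difference was 0.58 in place of 1.15.

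Of the cationic carriers, Slc7a1 (CAT1, ENSMUSG00000041313, chromosome 5, 148327410 to 148399904, minus strand) was the abundant one. Its shCtr level was 258, 219 and 402 CPM, and its shOSGEP level 374, 151 and 376 CPM, with replicate 2 lowest in both groups and the groups overlapping. The Log2FC was 0.04 (SE 0.494, 95% interval -1.10 to 1.17) with an unadjusted p of 0.943 in edgeR. Same-numbered ratios were 0.53, -0.53 and -0.10. Slc7a3 (CAT3, ENSMUSG00000031297, chromosome X, 101079210 to 101086020, minus strand) had 18, 0 and 2 counts in shCtr and 17, 4 and 0 in shOSGEP. Most of its counts were in the replicate 1 libraries of both groups. Where it had 0 counts, up to 3 counts are allowed, or 0.147 CPM in shCtr replicate 2 and 0.127 CPM in shOSGEP replicate 3, and a difference was not detectable at this depth.

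The sodium-coupled neutral carriers Slc38a1 and Slc38a2 were both low in the replicate 2 libraries. Slc38a1 (SNAT1, ENSMUSG00000023169, chromosome 15, 96571418 to 96642913, minus strand) had shCtr levels of 564, 276 and 616 CPM and shOSGEP levels of 676, 242 and 538 CPM. Replicate 2 was below the rest in both groups by more than the group means differed. The Log2FC was 0.00 (SE 0.533, 95% interval -1.22 to 1.22) with an unadjusted p of 0.998 in edgeR, and 6.59% of its 31-base words occur in another gene. Slc38a2 (SNAT2, ENSMUSG00000022462, chromosome 15, 96687392 to 96699730, minus strand), a carrier known to increase when amino acids run short, had shCtr levels of 446, 68.7 and 378 CPM and shOSGEP levels of 542, 179 and 284 CPM. Its groups overlapped, and shCtr replicate 2 was far below the rest. The Log2FC was 0.17 (SE 0.713, 95% interval -1.46 to 1.81) with an unadjusted p of 0.817 in edgeR, and 0.00 without replicate 2. Same-numbered ratios were 0.28, 1.39 and -0.41. The log2 ratio of Slc38a2 to Slc38a1 counts averaged -1.02 ± 0.877 in shCtr and -0.56 ± 0.320 in shOSGEP (SD, n = 3), with overlap and p = 0.6 in the exact permutation test.

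Transcript composition moved with part of these library differences. In shCtr replicate 2, genes within 2 percentage points of GC of Slc38a2 (44.7% GC) had a median deviation of -1.28 in log2 CPM from the rest of shCtr, and Slc38a2 itself one of -2.58. For Slc38a1 the values were -0.24 for genes of like GC and -1.10 for the gene. Slc3a2 (53.4% GC) deviated by 1.45, above the 0.80 of genes of like GC, and Slc7a5 by 0.76, below their 1.08. Slc1a4, Slc7a1 and Slc1a5 went the other way from genes of like GC, by -0.55 against 0.75, -0.56 against 0.43 and -0.11 against 1.11. In shOSGEP replicate 2 genes of like GC deviated little from the rest of shOSGEP, by 0.08 for Slc38a1, 0.20 for Slc7a1, 0.20 for Slc43a1 and -0.14 for Slc38a2. The carriers themselves deviated there by -1.31, -1.31, -1.83 and -1.13. With offsets for GC content and transcript length the Log2FC of Slc1a4 was 1.60, of Slc6a9 1.16, of Slc1a5 0.82, of Slc7a5 0.53 and of Slc38a2 0.04. With these offsets and the replicate block 3 of the 9 passed the study threshold, Slc1a4, Slc6a9 and Slc1a5, against 3.78% of all genes as higher. Limma-voom with sample quality weights passed those 3 and Slc3a2, against 3.35% of all genes. The part of composition in the other values was not tested.

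**Figure D3:**
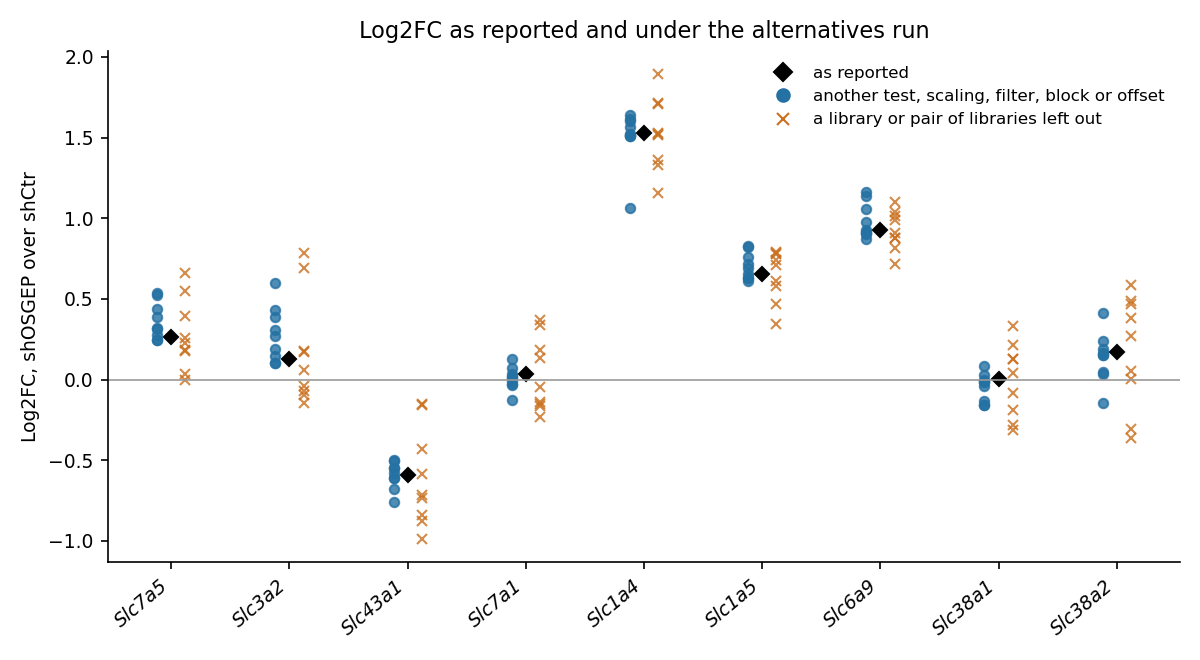
Log2FC of the 9 tested genes as reported (diamonds), under other tests, scalings, filters, block and offsets (circles), and with a library or a pair of libraries left out (crosses). Slc1a4 (1.07 to 1.89), Slc6a9 and Slc1a5 stay above 0 and Slc43a1 stays below 0, whereas the crosses of Slc7a1, Slc38a1, Slc38a2 and Slc3a2 fall on both sides of 0. Slc7a5 has 1 cross just below 0, at -0.0024 without replicate 1.

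Taken by replicate number, the carriers did not move as a block. Between the replicate 1 libraries 9 of the 9 tested were higher in shOSGEP, with a median log2 ratio of 0.84 against -0.03 over all genes. Between the replicate 2 libraries 4 of 9 were higher, with a median of -0.19 against 0.11 over all genes, and between the replicate 3 libraries 5 of 9, with a median of 0.41 against -0.01. The summed level of the 10 carriers was 1794, 1659 and 2052 CPM in shCtr and 2609, 1549 and 2128 CPM in shOSGEP. The sums overlapped between groups, with shOSGEP replicate 1 the highest and shOSGEP replicate 2 the lowest of all.

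The light chains that share Slc3a2 were compared next. Slc7a6, an exchanger of cationic for neutral amino acids, had a Log2FC of 0.01 (95% interval -0.85 to 0.87). Slc7a7, of like activity, had 0.45 (-0.74 to 1.64) and 0.72 without replicate 2, and Slc7a8, a second neutral exchanger, had 0.25 (-1.17 to 1.67) at 17 to 51 counts a library. Slc7a10 had 0 counts in every library. Slc7a11, the cystine and glutamate exchanger, had 324, 16 and 366 counts in shCtr and 689, 196 and 524 in shOSGEP. Every same-numbered comparison was higher, by log2 ratios of 1.22, 3.27 and 0.40. Both replicate 2 libraries were low, and the groups overlapped because shOSGEP replicate 2 lay below shCtr replicates 1 and 3. Its Log2FC was 0.98 (SE 0.963) with an unadjusted p of 0.340 in edgeR. With the replicate block the Log2FC was 1.52 and the unadjusted p in edgeR 0.0505, and without replicate 2 the Log2FC was 0.82.

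Of 30 other plasma membrane amino acid carriers 8 had enough counts to be tested, and those outside the test had at most 13 counts in any library. Of the 8, 6 had a Log2FC above 0 and 2 below, with a median of 0.12, and 0 passed the study threshold. In either direction 3 of the 8 passed it with GC and length offsets and the block, Slc7a11 and Slc7a7 higher and Slc6a6 lower, against 6.51% of all genes. In limma-voom 2 passed, Slc7a7 higher and Slc6a6 lower, against 4.42%, and without replicate 2 Slc7a11 alone passed, against 1.51%. Without replicate 2, 4 of the 8 were above 0 and the median was 0.16. The smallest p belonged to Slc6a6, the taurine carrier, with a Log2FC of -0.63 (SE 0.549) and an unadjusted p of 0.284 in edgeR. It was followed by Slc7a11, Slc7a7, Slc43a2, a further large neutral carrier, at 0.20 (0.36 without replicate 2), and Slc38a3, a glutamine carrier, at -0.27 (-0.42). Of 9 lysosomal amino acid carriers 8 were tested, 1 with a Log2FC above 0 and 7 below, with a median of -0.27, and 0 passed the study threshold. This tally rested on replicate 2: without it 5 were above 0 and 3 below, with a median of 0.05. The smallest p was that of Mfsd12, needed for cystine import into melanosomes and lysosomes, with a Log2FC of -1.01 (SE 0.561) and an unadjusted p of 0.108 in edgeR. Next was Pqlc2, the lysosomal exporter of cationic amino acids, with a Log2FC of -1.03 (SE 0.671) and an unadjusted p of 0.161 in edgeR. For both, shCtr replicate 2 was the high library, at 113 CPM for Mfsd12 and 65.3 CPM for Pqlc2 against 37.6 CPM or less and 14.3 CPM or less in the other shCtr libraries. Without replicate 2 their Log2FC were -0.16 and 0.10. Slc15a4, Slc36a4 and Ctns, the cystine exporter, had -0.50, 0.64 and -0.34, and without replicate 2 they had 0.09, 0.27 and -0.18.

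**Figure D4:**
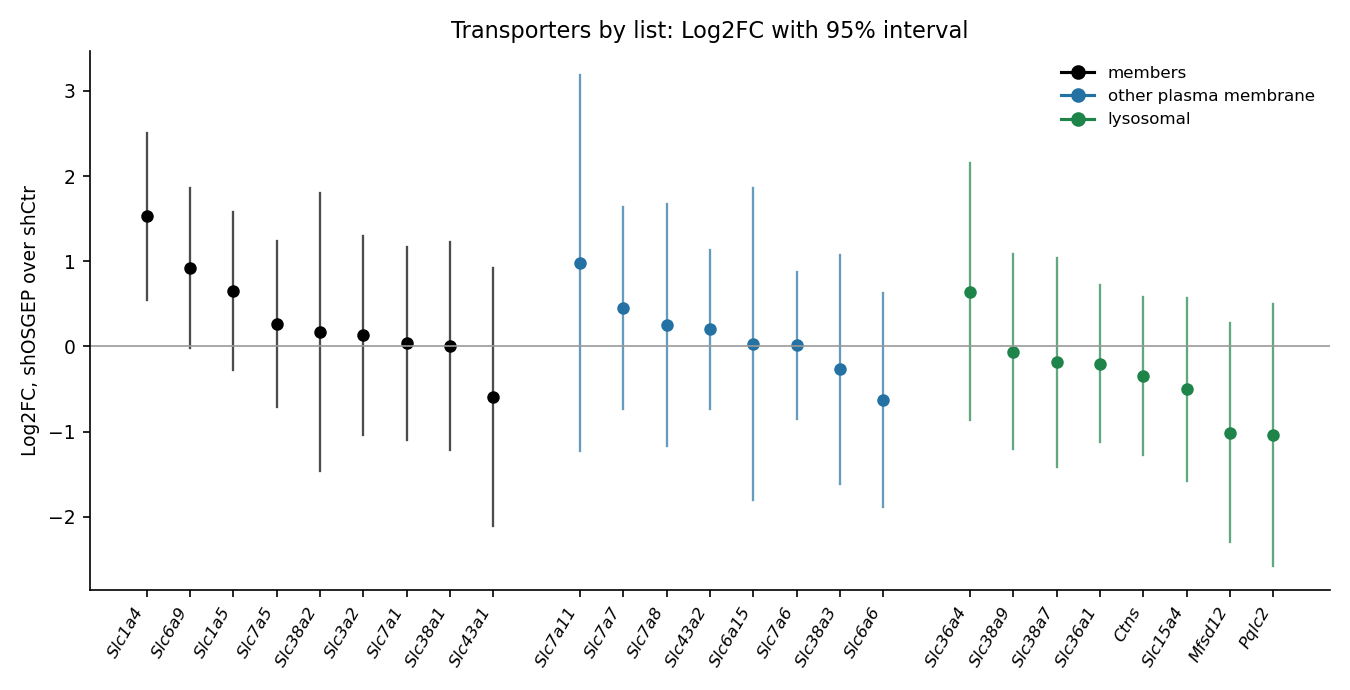
Log2FC with 95% intervals from edgeR's quasi-likelihood test for the 9 tested carriers (black), 8 other plasma membrane carriers (blue) and 8 lysosomal carriers (green), each sorted by Log2FC. The medians are 0.17, 0.12 and -0.27 (0.66, 0.16 and 0.05 without replicate 2), and Slc1a4 has the only interval that does not reach 0.

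The t6A modification serves tRNAs that read codons beginning with A (ANN codons), so the share of these was computed from the annotated coding sequences. It ran from 23.4% in Slc1a5 to 32.8% in Slc38a1, with a median of 25.5% over the 10 genes and 27.7% over 21001 coding genes, of which the middle 50% lay between 24.0% and 30.8%. Slc38a1 was at the 87.2 percentile of coding genes, Slc38a2 had 29.6% and Slc1a4 28.0%. These are properties of the sequences, and mRNA counts do not measure decoding.

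Profiles over the 6 libraries were compared by Euclidean distance between centred log2 CPM, among 10955 genes with a mean of at least 50 counts. Genes near to the mean of the 9 tested carriers included Abcc1 (0.244), Olfm1 (0.285), Slco3a1 (0.324) and Qsox2 (0.328). Those nearest to Slc7a5 were Tmem25 (0.250), Ssc5d (0.395), Abcb9 (0.397), Gm38534 (0.402) and Pcolce (0.458). Among the carriers Slc7a1 and Slc38a1 were the closest pair (0.615), both low in the replicate 2 libraries. With 6 libraries these distances describe shared library differences as much as group differences.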

How the data were processed

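PolyA RNA of 3 shCtr and 3 shOSGEP infections was sequenced. The authors trimmed reads with TrimGalore, aligned them to GRCm38 with STAR 2.6.1d and quantified genes with Salmon 1.4.0 (versions per the submitters' processing notes). The counts deposited by the authors are whole numbers per Ensembl gene, with no normalization; the annotation release is not given in the sources used here. Salmon divides shared reads by likelihood, so genes sharing sequence carry uncertain values. From these counts, genes were kept by filterByExpr (minimum count 10, minimum total 15) and tested with edgeR 4.0.16 (R 4.3.3, TMM, quasi-likelihood F-test, two-sided, no block) on all 12669 genes passing, with Benjamini-Hochberg adjustment; SE is Log2FC over the square root of F. DESeq2 1.42.0 and limma 3.58.1 served as alternatives, beside other scalings, filters, a replicate block, GC and length offsets (splines with 5 degrees of freedom) and left-out libraries. The fit was run on simulated counts with less spread than these libraries, large changes and no replicate or GC differences. That run checks the code and does not show how well the fit finds changes in these data. Lengths, GC and codons came from GENCODE M21, and RPKM used the longest transcript.

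Same-numbered libraries of the groups deviated together (correlations 0.811, 0.557 and 0.196, all over 0.1), so the numbers in the labels were taken as pairing the libraries. The pairing is not clear for replicate 3, since shCtr replicate 3 deviated more with shOSGEP replicate 1 (0.491), and the labels do not say what a number marks. Depth was 18915587 to 29487384 counts; the floor of 3 counts covers counting error only. The members, lists and tests were chosen with earlier results of these data known. All 10 members are named, with up to 5 genes of smallest p per companion list, each light chain of Slc3a2, Osgep and the 5 nearest profiles, of which 1 is not reported here. Slc7a10 is named as a light chain without being tested.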

Additional observations from a re-analysis of the deposited data

How the results depend on the processing

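At an adjusted p under 0.05, or under 0.1, 0 of the 9 tested carriers were called under any alternative run, with 1 at an unadjusted p under 0.05 in edgeR. At 0.05 DESeq2 called 14 and limma-voom 3 of the 12669 genes, and each other fit called 0. Carriers past the study threshold numbered 1 as reported. They numbered 2 with the replicate block (Slc1a4 and Slc6a9) and with upper-quartile scaling. They also numbered 2 with the filter that asked for 10 counts of every library and with GC and length offsets. Of all genes 2.94%, 2.27%, 1.83% and 5.01% passed in these fits in either direction, against 2.02% as reported. Carriers past it numbered 3 with these offsets and the block (6.51% of all genes) and 4 with limma-voom (4.42%). With libraries left out they numbered 0 without replicate 1 (1.93% of all genes). They numbered 2 without replicate 2 (1.51%) or shCtr replicate 2 (2.21%). Each other left-out fit had 1, against 0.52% (without shOSGEP replicate 2) to 3.50% (without shCtr replicate 1) of all genes. Upper-quartile scaling set the median of all genes at 0.07, from -0.03. The block altered no adjusted call. Carriers whose groups did not overlap numbered 3 to 5 when libraries were left out, 5 without shCtr replicate 2, and those higher in every same-numbered comparison numbered 5 with library totals in place of TMM. The share of all genes was not computed for these settings, and groups of fewer libraries separate more easily. These counts therefore cannot be read as a gain over the 3 as reported.

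With libraries left out, the median Log2FC over the carriers each fit kept ran from -0.0024 without replicate 1 to 0.42 without replicate 2. The 0.42 was not limited to the 9 tested carriers, whose median without replicate 2 was 0.66. Leaving out libraries moved Slc1a5 from 0.34 (without shOSGEP replicate 1) to 0.79, Slc7a5 from -0.0024 to 0.66, Slc3a2 from -0.15 to 0.78, Slc7a1 from -0.23 to 0.37, Slc38a1 from -0.31 to 0.33 and Slc38a2 from -0.36 to 0.59. The log2 ratio difference ranged from -0.0382 to 0.80 for Slc38a2 to Slc38a1 and from -0.21 to 0.22 for Slc7a5 to Slc3a2, and from 0.58 (without shOSGEP replicate 2) to 1.44 for Slc7a5 to Slc43a1. Slc7a1 was at -0.12 with limma-voom, -0.0316 with the replicate block, -0.0086 with the offsets and -0.0282 with both. Slc38a1 was at -0.0181 with DESeq2 and RLE scaling, -0.16 with limma-voom, -0.0003 without a filter on low counts, -0.0398 with the block, -0.13 with the offsets and -0.16 with both. Slc38a2 was at -0.14 with limma-voom. The cause of these changes was not tested. Slc1a4, Slc1a5, Slc6a9 and Slc43a1 kept their direction in 18 of 18 alternatives each. Depth limits only Slc7a3 and Slc43a1.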
